A study of Mus musculus with 6 samples.

Results

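The histone genes described here are those of the replication clusters, taken as every listed gene whose symbol begins Hist1h, Hist2h, Hist3h or Hist4h. There were 68 such genes among 21950 gene symbols listed for both genotypes, 6 of class H1, 18 of H2A, 19 of H2B, 12 of H3 and 13 of H4. Whole ileum of C57BL/6 mice aged 24 weeks was taken from 3 mice of each genotype, wild type and TLR4ΔIEC. In the latter, Toll-like receptor 4 (Tlr4) is deleted conditionally in intestinal epithelial cells. The promoter that drives the deletion is not given in the sources used here. RNA was sequenced after ribosomal RNA depletion, without selection for poly(A) tails. The deposited values form 1 pooled column of average coverage, in reads per base, for each genotype, which leaves variation among the mice unknown, and no difference below has a replicate check or a p-value. The 3 mice of a genotype share 1 file, which was treated here as a pool. Genotype cannot be told apart from any difference in how the pools were handled or sequenced.

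Core histones H2A, H2B, H3 and H4 form the protein spool of the nucleosome, and the linker histone H1 binds the DNA where it enters and leaves. Cells make the bulk of them in S phase, when newly copied DNA has to be packaged, from intronless genes that lie in clusters. Their messages carry no poly(A) tail and end in a short hairpin, the histone stem-loop, which is bound by the stem-loop binding protein SLBP and is needed for processing, translation and decay of the message. In the small intestine, dividing cells sit mainly in the crypts, while the villus cells no longer divide. In whole tissue, fewer cells of a type and less RNA per cell cannot be told apart.

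The stem-loop is shown first because its sequence separates H4 from the other classes. In these lines capitals mark the 6-base arms, the 4-base loop between them and 5 bases of flank on each side are in lower case, and sequences are the DNA strand of the message, 5′ to 3′, read from GENCODE vM21 transcripts (GRCm38, the assembly behind mm10).
Hist1h1e: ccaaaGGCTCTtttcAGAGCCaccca
Hist1h2bb: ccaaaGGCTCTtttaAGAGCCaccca
Hist1h4d: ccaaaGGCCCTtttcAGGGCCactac
Hist1h4j: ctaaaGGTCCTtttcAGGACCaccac
These lie on chromosome 13, at chr13:23621777-23621802 on the minus strand for Hist1h1e, and on the plus strand at chr13:23747198-23747223 for Hist1h2bb, chr13:23581945-23581970 for Hist1h4d and chr13:21735432-21735457 for Hist1h4j. They show the commonest form, a form with A in the loop, the usual H4 form and a second H4 form. The pattern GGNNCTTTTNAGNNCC, searched on the message strand, was found in the models of 43 of 67 members and in 0.161% of all 55450 GENCODE genes. All 32 matching members of H1, H2A, H2B and H3 had the arm GGCTCT, and 0 of the 11 matching H4 members did. Of those H4 members, 9 had the arm GGCCCT and 2 had GGTCCT. The other 24 members had no match, which says only that these letters are not in these models.

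The histone genes were strongly covered in both columns. Coverage of single members ran from 0.186 to 1060.0 reads per base in the wild type column, with a median of 148, and from 0.434 to 766 in the TLR4ΔIEC column, with a median of 149. Together they held 2.14% of all coverage in wild type and 2.09% in TLR4ΔIEC. All levels below are scaled units: coverage per base after both columns were brought to 1 scale by the median of ratios and to a mean total of 1000000 units. Ratios are log2 of TLR4ΔIEC over wild type, each plus a pseudocount of 1 unit, for genes averaging 5 units or more. Where a pair of levels is given, wild type comes first. Of the 68 members, 65 reached that level, against 8888 of 21950 genes in all. The others were Hist1h1t, Hist1h2aa and Hist2h2be.

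**Figure D1:**
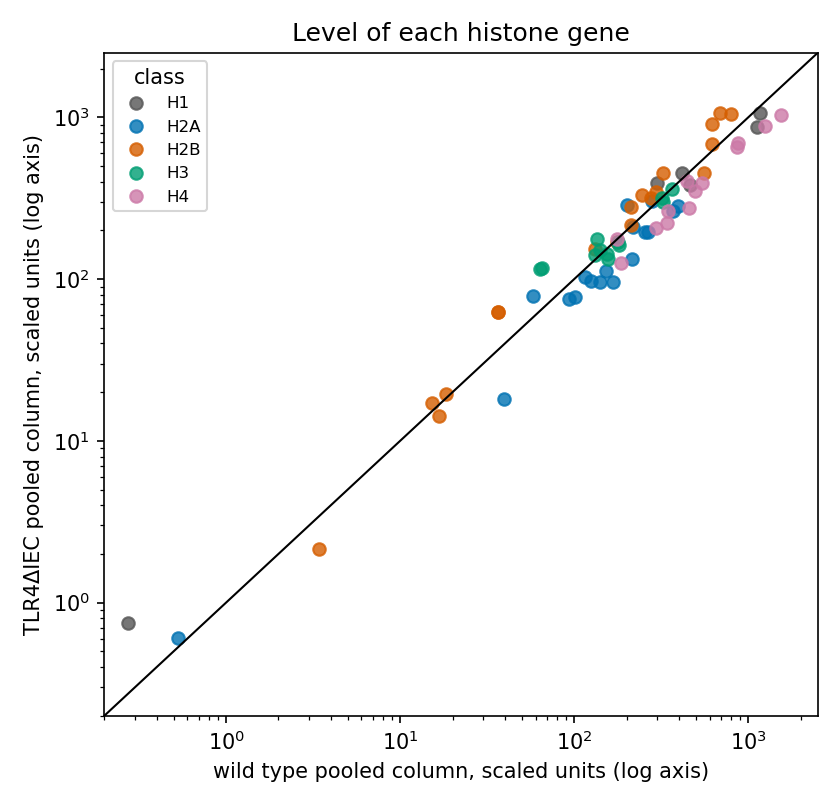
Level of each of the 68 histone genes in the wild type (horizontal) and the TLR4ΔIEC (vertical) pooled column, in scaled units on log axes, coloured by class; the line marks equal levels. Of 13 H4 genes 12 lie below the line, and most H2B genes lie above it.

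Taken one by one, the histone genes differed little in size, and the direction varied by class. H4 and H2A genes were mostly lower in the TLR4ΔIEC column, H2B genes mostly higher, and H3 and H1 genes lay on both sides of 0. The direction of H2A turned when the trend on transcript length and GC content was removed. The H3 median then turned to 0.51 and the median over all histone genes analysed to 0.27. A difference of 2-fold or more was seen for 1 member, Hist2h2ab, against 4.08% of all genes analysed. It was lower, as were 2.79% of all genes, and 0 members were higher by that much, against 1.29%. The median log2 ratio over the 65 genes was -0.12, and that of all 8888 genes was 0.03. Below 0 lay 39 of 65 members, against 47.3% of all genes, and above 0 lay 26, against 52.7%. By class, the share below 0 was 12 of 13 for H4, 14 of 17 for H2A, 7 of 12 for H3, 3 of 5 for H1 and 3 of 18 for H2B.

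**Figure D2:**
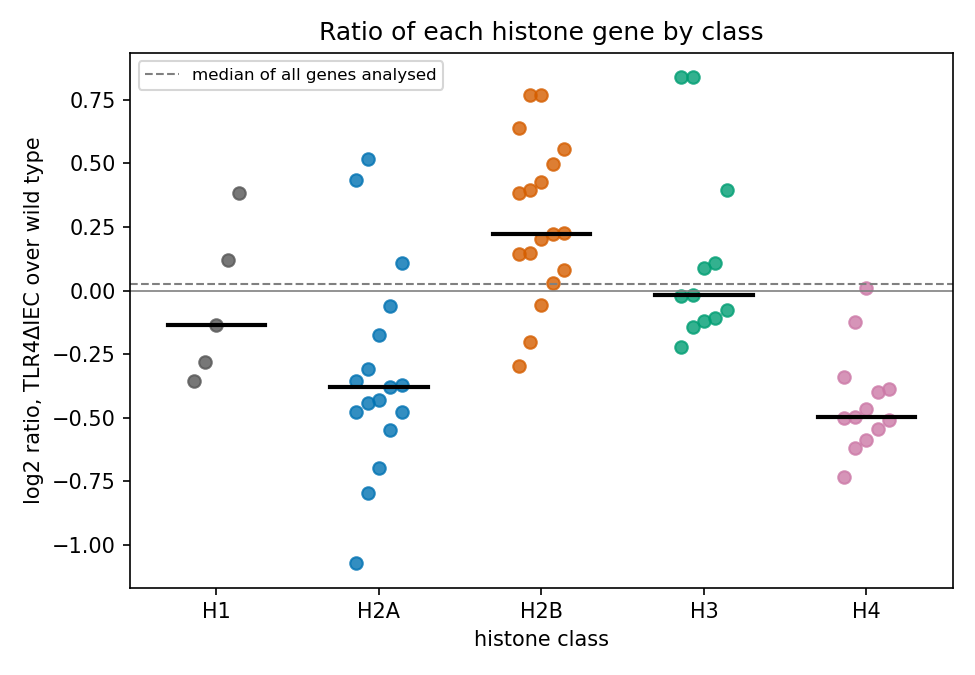
Log2 ratio of TLR4ΔIEC over wild type for each of 65 histone genes (points), grouped by class, with class medians as bars and the median of all genes analysed as a dashed line. The medians were -0.13 for H1, -0.38 for H2A, 0.22 for H2B, -0.02 for H3 and -0.50 for H4.

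H4, which pairs with H3 at the centre of the nucleosome, was the class with the lowest median log2 ratio, -0.50, and a range from -0.73 to 0.01. Hist1h4d, the most highly covered histone gene in the wild type column (chromosome 13, 23581568 to 23581969, plus strand), had 1552 and 1033 scaled units (-0.59). In the TLR4ΔIEC column the most highly covered was Hist2h2bb, at 1069.7 units. Hist1h4c had 1252 and 886 units, Hist1h4h 877 and 694, and Hist1h4f 864 and 655. The lowest ratios were those of Hist1h4j (457 and 275 units, log2 ratio -0.73) and Hist1h4b (340.0 and 221 units, -0.62). Outside the cluster on chromosome 13, Hist2h4 on chromosome 3 had 442 and 406 units (-0.12), and Hist4h4 on chromosome 6 had 176 and 177 (0.01). At least 1.25-fold lower, a size chosen after the values were seen, were 11 of 13 H4 genes, against 21.2% of all genes analysed. H4 genes have similar coding sequences, and how reads that fit several copies were placed is not given in the sources used here, so the value of a single copy is uncertain.

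H2A and H2B form a dimer and are often encoded by neighbouring genes, yet their values went apart. H2A genes had a median log2 ratio of -0.38, which turned to 0.38, with 13 of 17 above 0, when the trend of the ratio on transcript length and GC content was removed. Hist2h2aa1 had 394 and 282 units, and Hist2h2aa2 had 367 and 264. Both ratios were -0.48, and they do not count as separate measurements, since they rested on 299099 and 299117 covered bases in wild type and on 224816 and 224887 in TLR4ΔIEC. Hist2h2ab, weakly covered, had the lowest ratio of any member, with 39.3 and 18.2 units (-1.07). Hist1h2ae (167 and 95.9 units, -0.80) and Hist3h2a on chromosome 11 (216 and 133 units, -0.70) followed. Above 0 were Hist2h2ac (200.1 and 287 units, 0.52), Hist1h2ao (57.9 and 78.7 units, 0.44) and Hist1h2ab (282 and 304 units, 0.11). At least 1.25-fold lower were 11 of 17 H2A genes and at least 1.25-fold higher were 2, against 21.2% and 20.8% of all genes. All 18 H2A genes overlapped exons of other GENCODE genes, unlike most members of the other classes. Whether reads from those genes entered the H2A values was not tested.

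H2B genes had a median log2 ratio of 0.22, with 15 of 18 above 0. The most highly covered were Hist1h2bn (799 and 1052 units, 0.40), Hist2h2bb on chromosome 3 (687 and 1069.7 units, 0.64), Hist1h2bb (620.3 and 914 units, 0.56) and Hist1h2bg (618 and 682 units, 0.14). All 4 were higher in the TLR4ΔIEC column, by 1.10-fold to 1.56-fold. Hist1h2bq and Hist1h2br had the highest ratio of the class (36.3 and 62.7 units, 0.77). Their values were identical to each other, and the lengths recovered from their averages differed between the columns, so this ratio is uncertain. Below 0 were Hist1h2bc (555 and 451 units, -0.30), Hist3h2ba (16.6 and 14.3 units, -0.20) and Hist1h2be (-0.06), which was named after its value was seen. Hist1h2bc and Hist1h2be belong to the few members with RefSeq transcripts over 1000 bases, and Hist1h2be overlaps Hist1h1e. The pseudogene Hist3h2bb-ps, which takes its class here from its symbol, had 15.3 and 17.1 units. At least 1.25-fold higher were 8 of 18 H2B genes, against 20.8% of all genes, and 0 were lower by that much, against 21.2%.

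In divergent pairs both genes start from the same short stretch of DNA. An H2A and an H2B gene stood head to head in 11 pairs, and in 9 of them, with 163 to 267 bases between the genes, both genes reached 5 units. The H2B gene had the higher log2 ratio in each of these 9 pairs, by a median of 0.76 (range 0.14 to 1.32). In 8 of these 9 the H2B gene was above 0 and the H2A gene below. Hist1h2bn had 799 and 1052 units, while its partner Hist1h2ak had 265 and 196. Hist1h2bj had 322 and 456 units, and its partner Hist1h2ag 218 and 209. Hist1h2bc and Hist1h2ac were both below 0, at -0.30 and -0.44. The other 2 pairs each held a gene under 5 units. On chromosome 3 the order was the opposite, with Hist2h2ac at 0.52 and the weakly covered Hist2h2be at -0.49 (3.41 and 2.15 units). Hist1h2aa and Hist1h2ba were nearly equal, at 0.072 and 0.082. Over all 11 pairs the H2B gene thus had the higher ratio in 10 and the lower in 1. The pair with the largest difference, 1.32, includes Hist1h2br, whose value is uncertain for the reason given above. These pairs share their libraries and similar coding sequences, so they are not 9 independent measurements. In each of these 9 pairs the H2A gene overlapped exons of another GENCODE gene and the H2B gene did not.

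**Figure D3:**
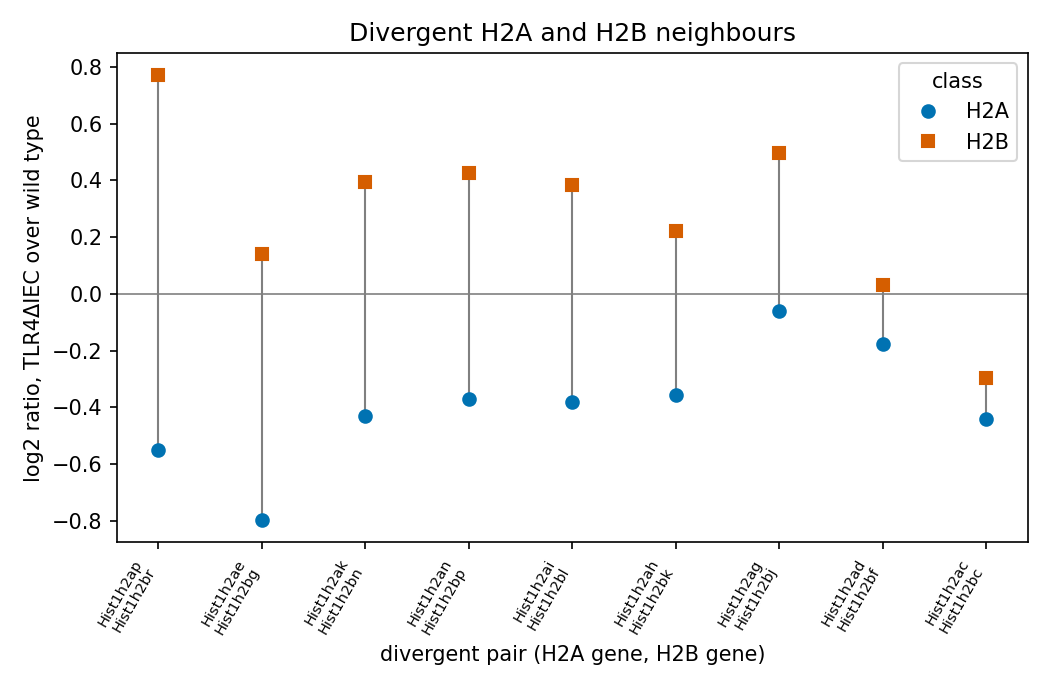
Log2 ratio of TLR4ΔIEC over wild type for the H2A gene (circle) and the H2B gene (square) of each of the 9 divergent pairs in which both genes reached 5 units, joined by a line. The square lies above the circle in these 9, by 0.14 to 1.32. The pair Hist2h2ac and Hist2h2be, with the opposite order (0.52 and -0.49), and the pair Hist1h2aa and Hist1h2ba are not plotted.

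The promoters of an H2B gene from such a pair and of the most highly covered H4 gene are printed to show the motifs counted below. Each runs from 250 bases before to 50 after the start of the gene, from the RefSeq table for GRCm38.p6. Capitals mark exact matches on either strand. One motif searched was CCAAT, bound by the factor NF-Y. A common form of the TATA box, TATAAA, was searched as well. The third was ATTTGCAT, the octamer motif known from H2B promoters. The first is at chr13:21753826-21754125 and the second at chr13:23581318-23581617, both on the plus strand.
Hist1h2bn: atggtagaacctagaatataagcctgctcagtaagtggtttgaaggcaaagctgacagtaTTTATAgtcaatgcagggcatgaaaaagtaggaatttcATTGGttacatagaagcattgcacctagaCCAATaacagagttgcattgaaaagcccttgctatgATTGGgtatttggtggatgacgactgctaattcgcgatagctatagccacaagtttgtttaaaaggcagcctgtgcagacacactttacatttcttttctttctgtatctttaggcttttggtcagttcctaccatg
Hist1h4d: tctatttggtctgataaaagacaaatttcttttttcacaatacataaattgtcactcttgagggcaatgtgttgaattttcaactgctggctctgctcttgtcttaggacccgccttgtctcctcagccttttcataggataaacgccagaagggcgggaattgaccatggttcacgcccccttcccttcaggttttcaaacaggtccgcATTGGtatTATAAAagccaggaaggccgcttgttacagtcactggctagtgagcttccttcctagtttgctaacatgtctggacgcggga
Both printed promoters hold CCAAT and TATAAA and neither holds ATTTGCAT, and Hist1h4d is 1 of only 3 H4 genes with CCAAT. In the Hist1h2bn window the TATAAA match is on the opposite strand, printed as TTTATA. It lies inside the partner gene Hist1h2ak, so it need not be a TATA box of Hist1h2bn. The table held promoters of 62 members. CCAAT was found in all 50 promoters of H1, H2A, H2B and H3 genes and in 3 of 12 H4 promoters, against 37.4% of all 32851 promoters in the table. ATTTGCAT was found in 7 of 18 H2A and 6 of 16 H2B promoters and in 0 of 28 promoters of the other classes, against 1.74% of all. TATAAA was found in 35 of 62, against 13.6%. Windows of 10 H2A and 10 H2B genes overlapped a partner's window, so these promoters are not all separate sequences. H4 genes with CCAAT had ratios from -0.59 to -0.50 and those without it from -0.73 to 0.01. H2B genes with ATTTGCAT had ratios from 0.08 to 0.64 and those without it from -0.20 to 0.77. The groups were small, 3 genes with and 9 without for H4, and 6 with and 10 without for H2B. In the same order, medians were -0.51 and -0.46 for H4 and 0.21 and 0.39 for H2B. The ranges overlapped, and whether either motif had a part in the ratios was not tested.

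H3, the partner of H4, was close to equal in most copies before the trend on length and GC was removed, with a median log2 ratio of -0.02. Hist1h3c had 367 and 362 units, Hist1h3b 321 and 317, Hist1h3e 325 and 299, and Hist1h3d 178 and 169. The lowest ratios were those of Hist2h3b (156 and 133 units, -0.22) and Hist1h3f (179.8 and 163 units, -0.14). Hist2h3c1 (63.8 and 115 units) and Hist2h3c2 (65.3 and 118 units) had the highest, 0.84 each. They rested on the same 28952 covered bases in wild type and 54643 in TLR4ΔIEC, so they are 1 measurement. The sign of the class median depended on the scaling and turned to 0.052 with scaling to the column total. The H3 median was 0.17 with quantile normalization. With the length and GC trend removed it was 0.51, with 10 of 12 genes above 0.

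H1 linker histones divided between the genes. Hist1h1e (1171 and 1067 units, -0.13) and Hist1h1c (1117 and 872 units, -0.36) were the most highly covered, and Hist1h1d had 466 and 383 units (-0.28). Above 0 were Hist1h1b (300.2 and 392 units, 0.38) and Hist1h1a (417 and 454 units, 0.12). Of the genes known from testis, the linker histone Hist1h1t had 0.273 and 0.749 units and Hist1h2aa 0.528 and 0.606. Hist1h2ba was clearly covered, with 18.3 and 19.5 units. Hist2h2be, whose RefSeq transcript is long, had 3.41 and 2.15 units.

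Sums over a class depend little on how reads were shared among its own copies, and they showed the same split. H4 summed to 7824 and 5688 units, 1.38-fold lower, and H2A to 3190.2 and 2624, 1.22-fold lower. H2B summed to 5277 and 6612 units, 1.25-fold higher. H3 summed to 2217 and 2288 units and H1 to 3471 and 3169. H4 was thus the most highly covered class in wild type, with 35.6% of the histone sum, and H2B was in TLR4ΔIEC, with 32.4% against 24.0% in wild type. The level of H2B relative to H4 was 0.675 in the wild type and 1.16 in the TLR4ΔIEC column. The sum over all 68 genes was 21979 and 20381 units, 1.08-fold lower. These sums count both Hist2h2aa1 and Hist2h2aa2, both Hist2h3c1 and Hist2h3c2, and both Hist1h2bq and Hist1h2br. With each of these pairs counted once, log2 ratios of the sums were -0.26 for H2A, 0.32 for H2B and 0.013 for H3. With both counted they were -0.28, 0.33 and 0.045.

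**Figure D4:**
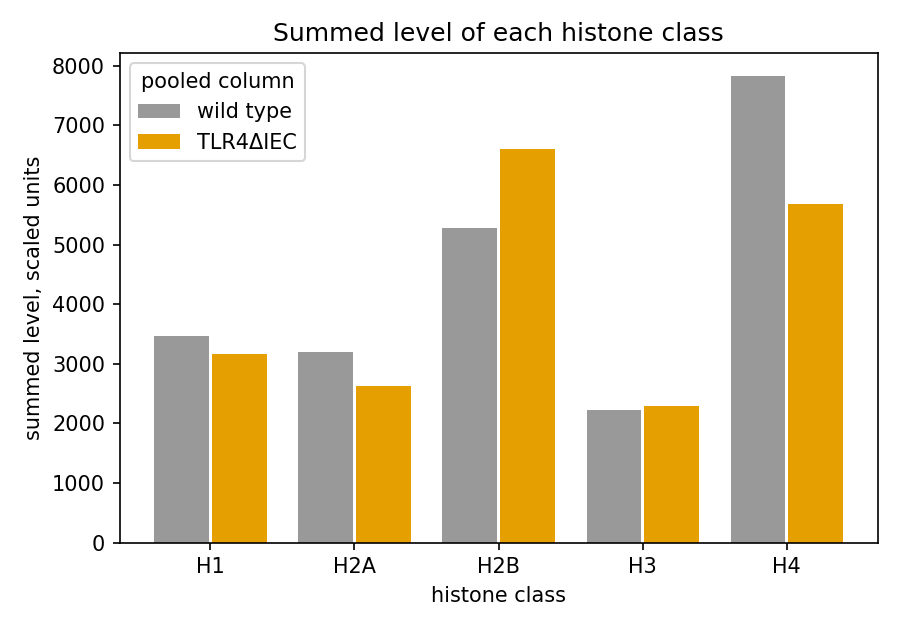
Summed level of each histone class in the wild type and TLR4ΔIEC pooled columns, in scaled units. The H4 bar is lower in TLR4ΔIEC (5688 against 7824) and the H2B bar higher (6612 against 5277).

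In both large stretches of the main cluster the H2B median lay above that of H4. On chromosome 13 the members fell into stretches separated by more than 100000 bases. In the stretch from 21715711 to 21837530, the median log2 ratio was 0.41 for 6 H2B genes and -0.48 for 4 H4 genes. These H2B genes include Hist1h2bq and Hist1h2br, whose identical ratio is uncertain. In the stretch from 23531044 to 23764412, the median was 0.09 for 6 H2B genes and -0.50 for 6 H4 genes. There 4 of the 6 H2B genes lay above 0, with a range from -0.30 to 0.56, and the median of all genes was 0.03. H2A medians in these stretches were -0.38 and -0.31, over 5 genes each. On chromosome 3 the cluster held 4 analysed H2A genes with a median of -0.48, while Hist2h2bb was at 0.64.

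Transcript length and GC content moved with the ratios, and their part was not tested beyond the correction given here. Histone messages are short, with a median annotated length of 488 bases over the 65 genes, and their coding sequences are rich in G and C. Among the genes outside the clusters, those with models of at most 1000 bases had a median log2 ratio of -0.10 (1027 genes), and among these the 98 with at least 60% GC had -0.44, with 80.6% below 0. Those groups were set after the values were seen. The median GC content of the coding sequence was 69.5% for H2A, 67.4% for H3, 65.7% for H4, 62.8% for H2B and 61.8% for H1. When the trend of the ratio on length and GC over all genes was removed, the median of H4 was -0.16, with 11 of 13 below 0. Length and GC came from the GENCODE model, which for Hist1h4d has 1138 bases against 402 in its RefSeq entry. Models of Hist1h4j, Hist1h4c, Hist2h4 and Hist4h4 were long too, at 774, 820, 1630 and 2863 bases, with 43.8% to 51.3% GC. Most H2A models were shorter and richer in GC, though that of Hist1h2ac has 2482 bases and that of Hist3h2a 2146. The correction thus did not weigh on H4 and H2A alike. The median of H2A turned to 0.38, that of H2B was 0.54 and that of H3 was 0.51. The lower value of H2A thus depended on this choice. In the 9 pairs with both genes analysed the H2B gene kept the higher ratio, by a median of 0.40.

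Genes that act with the histones in S phase were mostly higher in the TLR4ΔIEC column. The cluster histones as a whole had a median of -0.12, which became 0.27 with the length and GC trend removed. Of 29 DNA replication genes analysed, 22 lay above 0, and 6 differed by 2-fold or more, all of them higher, with a median log2 ratio of 0.47. Over all genes analysed, 52.7% lay above 0 and 1.29% were higher by 2-fold or more. Among the well covered ones, Mcm6, a subunit of the replicative helicase, had 20.3 and 43.1 units (1.05), thymidine kinase Tk1 was at 0.51 and the sliding clamp Pcna at 0.22. All 16 mitosis genes analysed lay above 0, with a median of 0.63 and with 0 reaching 2-fold. Histone chaperones, which escort new histones to DNA, had 14 of 17 above 0 and a median of 0.37, with Ssrp1 at 0.53, Rbbp7 at 0.53 and Nap1l4 at 0.37. Hat1, which acetylates new H4, and Asf1b, a chaperone of H3 and H4, had ratios of 0.83 and 0.81 at low levels and were picked after their values were seen.

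**Figure D5:**
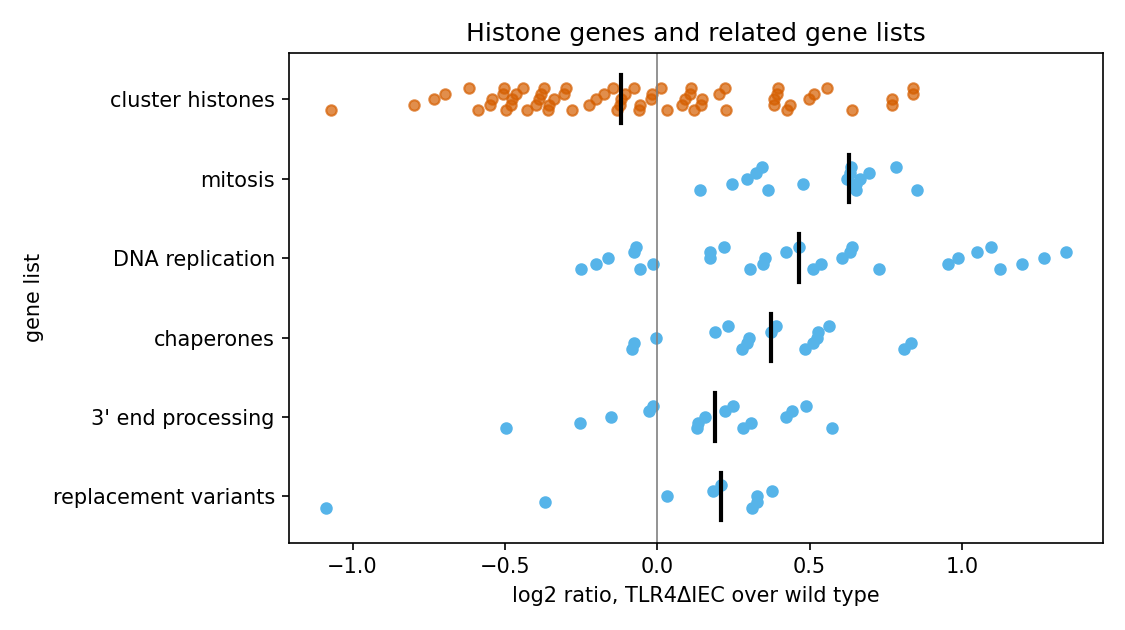
Log2 ratio of TLR4ΔIEC over wild type for each analysed gene of 5 related lists and for the 65 cluster histone genes, with medians as bars. Medians of the lists were 0.21 (replacement variants), 0.19 (3′ end processing), 0.37 (chaperones), 0.47 (DNA replication) and 0.63 (mitosis), and that of the cluster histones was -0.12.

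Genes of stem-loop processing had 11 of 16 above 0, against 52.7% of all genes, and a median of 0.19. Of these, 0 differed by 2-fold, against 4.08% of all genes. Slbp itself, named after its value was seen, had 11.9 and 18.1 units (0.57). The H2B median, 0.22, had the same sign, and the H4 and H2A medians the opposite one. That of H2A turned to 0.38 with the length and GC trend removed. The part of Slbp in the class values was not tested. Cpsf3, the nuclease that cuts histone messages, was at 0.42, and the Sm proteins Snrpb, Snrpf and Snrpg, shared by splicing particles, were at 0.31, -0.25 and -0.50. Regulators of cluster transcription had a median of 0.11 over 6 genes, and Npat, the coactivator of the clusters, did not reach 5 units (2.68 and 2.94). Replacement histones, which are also made outside S phase, come mostly from polyadenylated messages. They had 7 of 9 above 0, against 52.7% of all genes, and a median of 0.21. H2afz had 249 and 324 units (0.38), H3f3b was at 0.33, H2afv at -0.37 and H2afj, the H2A.J gene, at -1.09. Other RNAs that lack a poly(A) tail had 3 of 5 below 0, against 47.3% of all genes. Their median was -0.80, which was -0.072 with the length and GC trend removed. Among them were the RNase P RNA Rpph1 at -1.46, the RNase MRP RNA Rmrp at -1.02, telomerase RNA Terc at -0.80 and the minor spliceosomal RNA Rnu12 at 0.84.

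Of the 10 ileum markers, 10 passed the filter, and the bile acid binding protein Fabp6 had 15333 and 13619 units. Below 0 lay 8 of the 10, against 47.3% of all genes, with a median log2 ratio of -0.17. Largest in size were the ratios of Alpi (-1.36), Fgf15 (-0.63), Cubn (-0.62) and Slc51a (-0.56), and the highest was that of Lyz1 (0.15). Tlr4 itself had 2.90 units in wild type against 2.24 in TLR4ΔIEC, over the whole transcript and with cells outside the epithelium included, so it checks the labels weakly. Markers of several cell types differed too. Crypt markers summed to 220 and 344 units (5 of 8 analysed), T cell markers to 97.0 and 265 (6 of 8), plasma cell markers to 412 and 1011 (5 of 5), and macrophage markers to 899 and 1673 (5 of 7). In the same order, much of each sum was 1 gene: Olfm4 (133 and 224 units), Gzma (57.6 and 196), Igj (202 and 702) and Lyz2 (690 and 1389). Above 0 lay 4 of 5 analysed crypt, 6 of 6 T cell, 5 of 5 plasma cell and 4 of 5 macrophage markers. Among all genes 52.7% did. Axin2 (-0.05) and C1qa (-0.08) lay below 0, and Lgr5, under 5 units, had 3.26 and 3.33. Germinal centre and follicle B cell markers summed to 74.2 and 63.5 units (2 of 10 analysed). Adipose markers summed to 64.5 and 20.4 (4 of 5). Male germ cell markers summed to 0.447 and 0.975, of which 0.273 and 0.749 were Hist1h1t, itself a cluster histone gene, and Prm1 was at 0.123 and 0.106. The part of these cells in the histone values was not tested.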

How the data were processed

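Per the labels, 3 mice of each genotype share 1 file, so each deposited column was treated as a pool. The authors deposited average coverage, a signal in reads per base of a RefSeq entry, per the file headers. Per the submitters' processing notes, TopHat2 2.0.10, Bowtie2 2.1.0 and build mm10 were used, with no roles given. The sources used here do not name the tool behind the coverage or say how multiply placed reads and strand were treated. The columns listed 22724 and 22687 entries with summed coverage of 699800 and 698473. Read length is not given, so coverage was not turned into counts and no counting error is given. Any scaling to depth by the authors is not stated. The columns were scaled here by the median of ratios (factor 1.05). A symbol with several entries was represented by the highest. Coverage times the annotated length gave a whole number of bases, within 1e-11 of the coverage, for 45 of 68 members. For 2 members (Hist1h2bq and Hist1h2br) no common length was found. Exons of other GENCODE genes overlapped 23 of 67 members, among them all 18 H2A genes. A test across mice was not possible. Named members were, by a written rule, in each class the 4 most covered, the 2 highest and 2 lowest ratios, all genes differing by 2-fold, all of Hist2, Hist3 and Hist4, and the testis genes. From related lists the rule took up to 4 genes of at least 20 units with the largest ratios in size. Partners in pairs, Npat and single marker genes are named for their role, and others are marked as chosen after their values were seen. The members and lists were chosen with earlier results of these data known. RefSeq accessions matched 67 members. Python 3.11.15, numpy 2.4.6 and pandas 2.3.3 were used, and the steps were tested on simulated data. Alternatives were 4 scalings, 2 pseudocounts, 3 filters, 2 ways of handling entries, removal of the length and GC trend, and sets of members left out.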

Additional observations from a re-analysis of the deposited data

How the results depend on the processing

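The class pattern was recomputed under 13 alternatives set out in writing and 2 added after seeing the data, and a median or sum was counted as moved from 0.1 log2 units on. The H4 median stayed below 0 and the H2B median above 0 under all 15, and so did their sums under the 14 that gave a sum. Many of these settings could not test H4. The filters, the ways of handling entries and the sets left out kept the same 13 H4 genes and the median of -0.50. It was also -0.50 with a pseudocount of 0.5 or 5. Only other scalings and removal of the length and GC trend could shift the H4 median, and it moved under 3 alternatives. Removal of the length and GC trend used GENCODE models, which for several H4 genes were longer than the RefSeq entry. Leaving the 50 highest genes out of the total used for scaling raised the median of all genes from 0.03 to 0.12. Medians were then -0.015 over all histone genes, -0.029 for H1, -0.28 for H2A, 0.33 for H2B, 0.086 for H3 and -0.39 for H4, summed levels had log2 ratios of -0.026 (H1), -0.18 (H2A), 0.43 (H2B), 0.15 (H3) and -0.35 (H4), and 0 genes were 2-fold lower. With quantile normalization, medians were 0.036 over all, 0.036 for H1, -0.27 for H2A, 0.38 for H2B, 0.17 for H3 and -0.33 for H4, and sums 0.036, -0.14, 0.46, 0.19 and -0.32 in the same order. With scaling to the column total, the H3 median was 0.052. With the trend on length and GC removed, medians were 0.27 over all, 0.38 for H2A, 0.54 for H2B, 0.51 for H3 and -0.16 for H4, with 2 genes 2-fold higher (Hist1h2ao and Hist2h3c2) and 0 lower. This correction was not applied to sums. With a pseudocount of 5, 0 genes were 2-fold lower. With a filter at 20 units the H2B median was 0.38, and with no filter that of H1 was -0.0066. The cause of these shifts was not tested.

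Medians of related lists moved as follows. Without the 50 highest genes they were 0.31 for replacement variants, 0.48 for chaperones, -0.70 for RNAs without a tail, -0.066 for ileum, 0.68 for crypt, 1.27 for plasma cell and 0.82 for macrophage markers. Quantile normalization gave 0.33 for replacement variants and 0.83 for macrophage markers, and no filter gave 0.55 for the latter. With the trend removed they were 0.52 for mitosis, -0.072 for RNAs without a tail, 1.31 for plasma cell, 0.97 for macrophage and -1.34 for adipose markers. Replicates could not be left out, since no value per mouse was used. No paired analysis was possible because each genotype is a single pooled column. No 2 members had identical transcript models. Counting entries on the same bases once left 62 members analysed and moved no median or sum by 0.1 or more.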
